A study of Mus musculus with 12 samples.

Results

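The collagen genes were followed across 12 bulk RNA-seq libraries of primary mouse oligodendrocyte precursor cells (OPCs). The members are the 40 genes with a Col symbol that were listed for this purpose, of 55536 annotated genes, and all 40 matched the annotation. They were sorted into fibrillar (11 genes), basement membrane (9), beaded filament and network (5), fibril-associated (9), and transmembrane and other collagens (6). The OPCs came from pooled brains of pups at P4 to P6, are labelled Sox10GFP+, and were isolated by sorting for that reporter or with CD140a beads. Which way was used for a given library is not stated. All were cultured with PDGFaa and bFGF. The mouse model is labelled EAE in all samples, although the described cells are cultured neonatal OPCs. There were 3 replicates in each of 4 groups. Ctr received neither agent, and a vehicle is not named in the labels. EZH2i received EPZ011989, an inhibitor of the H3K27 methyltransferase EZH2, for 4 days at 1.5 μM, and fresh inhibitor was added after each 48 h. IFNg received interferon gamma (IFN-γ) at 100 ng/ml for 6 h, and IFNg_EZH2i received both agents. The comparisons ask how EZH2 inhibition and a short IFN-γ pulse, alone or together, move the collagen transcripts of a glial progenitor.

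Collagens are extracellular proteins whose chains wind around each other in a helix of repeated glycine-containing units. Fibrillar chains assemble into the fibers of connective tissue, type IV chains form the sheet of the basement membrane, and fibril-associated collagens sit on the surface of fibrils. In the brain, most fibrillar collagen type I is made by meningeal and perivascular fibroblasts, type IV collagen lies around blood vessels, and the glial matrix is poor in fibers. Where a helix joins different chains, their balance is part of the biology.

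Library totals ran from 17403896 to 66546017 estimated counts, with a median of 33625881, and Ctr replicate 2 was the shallowest. OPC markers (Pdgfra, Cspg4, Ptprz1, Sox10, Olig1, Olig2) were high in every library, with sums from 3837 to 6952 CPM (counts scaled to the same library size with TMM factors). Of 10 markers of fibroblasts and leptomeningeal cells, Slc22a6 had no counts, 6 averaged under 1 CPM, and Dcn, a defining proteoglycan of fibroblasts, stayed between 0 and 0.110 CPM. Lumican (Lum) alone of these rose with IFN-γ, from a level near 0 in Ctr, whereas Foxc1, Foxd1 and Twist1, transcription factors of mesenchymal cells, rose with EZH2i. The fibroblast list summed to 15.4 to 31.1 CPM in Ctr, 28.4 to 43.7 in EZH2i, 12.3 to 30.3 in IFNg and 24.2 to 49.0 in IFNg_EZH2i. In bulk RNA, fewer cells of a type and less RNA per cell cannot be told apart.

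The collagen RNA of these OPCs was dominated by type XI. To compare genes, CPM was divided by the length in kilobases of each member's most-read transcript. Col11a1, whose chain nucleates thin fibrils, stood at 117 to 283 CPM per kilobase in the 12 libraries (mean 173), above every other member in each of them. Col16a1, a fibril-associated chain, had a mean of 48.1 and Col11a2, the partner of Col11a1, a mean of 35.7 CPM per kilobase. These 2 exchanged places, since Col16a1 was the higher one in 6 of 12 libraries.

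After them came Col9a1 (16.6 CPM per kilobase), Col9a3 (14.5), Col20a1 (11.99), Col4a1 (6.72), Col5a1 (5.98) and Col4a5 (5.49). Col9a1, Col9a3 and Col20a1 overlapped between libraries, and so did Col4a1, Col5a1 and Col4a5. These means pool groups whose levels differ. In Ctr alone, Col4a1 averaged 2.41 CPM per kilobase, below Col19a1 (5.65), Col5a1 (5.18), Col4a5 (4.58) and Col5a3 (4.27), and in IFNg_EZH2i it averaged 11.3. This order depends on the scale. In deposited TPM, explained below, the Ctr means were 3.55 for Col4a5, 3.47 for Col5a1, 3.24 for Col19a1, 2.99 for Col4a1 and 2.94 for Col5a3. Only 40.5% of the Col19a1 reads fell to its most-read transcript. The genes of fibroblast collagen were close to absent: Col1a1, the chain of type I collagen in skin and bone, averaged 0.0369 CPM per kilobase, Col1a2 0.0746, Col3a1 0.128 and Col2a1, the cartilage collagen, 0.143. In all, 10 members stayed under 1 CPM in every library. Of these, 5 passed the filter on low counts and none was called in the group-only fit.

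**Figure D1:**
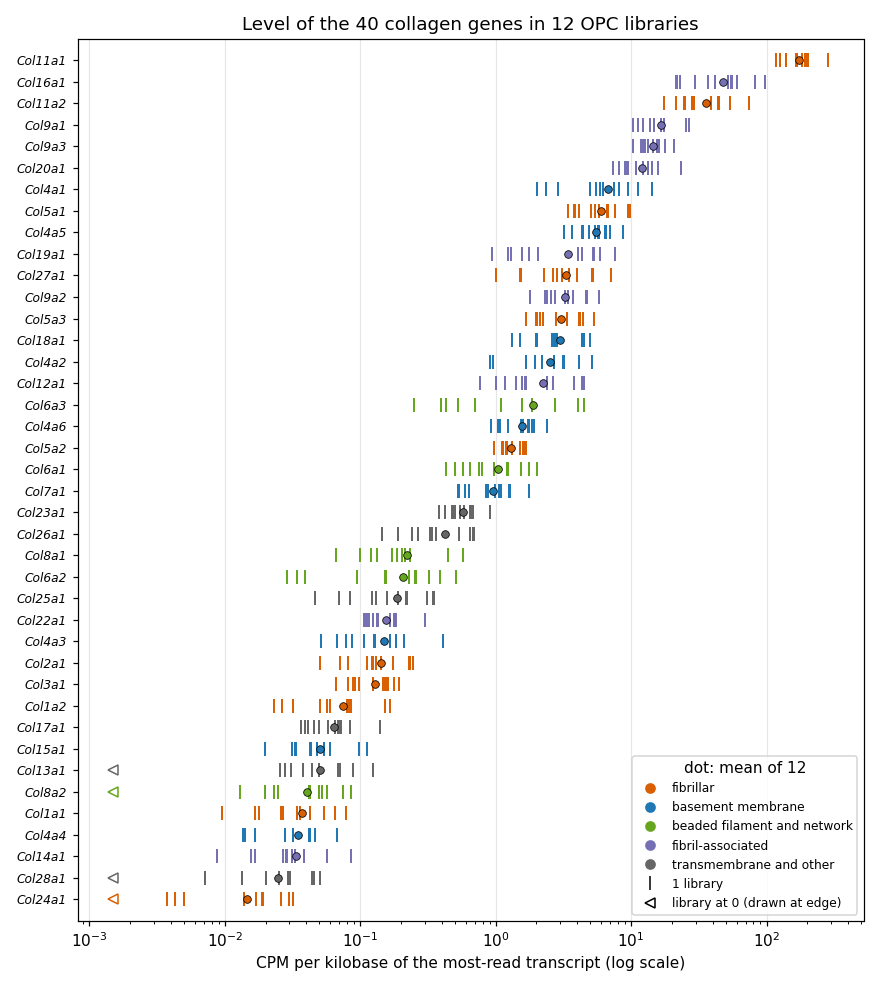
Level of each of the 40 collagen genes in CPM per kilobase of its most-read transcript (log scale), with a tick for each of the 12 libraries, a dot for their mean, and colors for the classes. Col11a1 lies between 117 and 283, while Col1a1 and Col1a2 lie near the bottom with means of 0.0369 and 0.0746, and a triangle at the left edge marks a gene with at least 1 library at 0.

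Summed over members in deposited TPM (a read count per effective transcript length, scaled to the library), fibrillar collagens held 60.8% of the collagen signal, fibril-associated collagens 31.5%, basement membrane collagens 6.39%, beaded filament and network collagens 0.937%, and transmembrane and other collagens 0.385%. The fibrillar share was 65.6% ± 2.001 (SD, n = 3) in Ctr, 64.3% ± 2.44 in EZH2i, 59.6% ± 1.79 in IFNg and 55.7% ± 1.10 in IFNg_EZH2i. The basement membrane share was 5.24% ± 0.556, 6.43% ± 0.938, 5.66% ± 0.102 and 8.04% ± 0.601 in the same order, and the fibril-associated share 28.2% ± 1.42, 27.9% ± 2.08, 33.6% ± 1.31 and 34.8% ± 1.55. On the CPM per kilobase scale the shares over all libraries were 64.0%, 28.8%, 5.87%, 0.970% and 0.381%. Long and short transcripts weigh differently in these scales, and unscaled CPM gave 74.6% for the fibrillar and 18.1% for the fibril-associated class.

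IFN-γ moved single collagen genes in both directions. In IFNg against Ctr, 7 of the 35 members that passed the filter on low counts were called by edgeR's quasi-likelihood test (Benjamini-Hochberg adjusted p under 0.05 over all genes), where 8.75% of all 18995 tested genes were called. Col4a1, Col4a2, Col9a1, Col12a1 and Col16a1 rose, and Col5a3 and Col19a1 fell. In IFNg_EZH2i against EZH2i, 4 members were called, against 8.07% of all genes: Col4a1 and Col12a1 rose, and Col5a3 and Col19a1 fell. The median log2 fold change of the 35 members was 0.13 and 0.08 in these comparisons, beside 0.0010 and 0.0017 over all genes. Without Ctr replicate 2, Ctr replicate 3 or IFNg replicate 1, 4 members were called in IFNg against Ctr. Without EZH2i replicate 2 or IFNg_EZH2i replicate 2, 2 members were called in IFNg_EZH2i against EZH2i.

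With the replicate number as a block, 12 members were called in IFNg against Ctr (21.2% of all genes) and 14 in IFNg_EZH2i against EZH2i (19.3% of all genes). The blocked fit added Col11a1, Col4a3, Col18a1, Col6a3 and Col20a1 to the former, all higher. It added Col11a1, Col4a2, Col18a1, Col6a3, Col9a1 and Col16a1 as higher and Col5a1, Col11a2, Col9a2 and Col25a1 as lower to the latter. Col4a3, Col5a1, Col18a1, Col20a1 and Col25a1 are outside the rule for named genes and were chosen after their values were seen. Ctr and IFNg only just met the rule for pairing by replicate number, at 0.105 for replicate 2 with a limit of 0.1. The blocked results of IFNg against Ctr are therefore less certain.

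Under EZH2i, the collagen genes that passed the threshold in the group-only fit all rose, and they passed it in the average over both IFN-γ states. No member was called in EZH2i against Ctr in the group-only fit, where 0.405% of all genes were called by edgeR. With the replicate block 10 members were called there, all higher, beside 771 of all 18995 genes. Ctr and EZH2i just failed the rule for pairing by replicate number, at 0.0929 for replicate 2, so these blocked counts are less certain too. In the group-only fit 9 members had an unadjusted p under 0.05, beside 1338 of all 18995 genes, and DESeq2 called 3 members. No member was called by edgeR in IFNg_EZH2i against IFNg (0.353% of all genes). There 6 members had an unadjusted p under 0.05, beside 1220 of all 18995 genes, and DESeq2 called 1 member. The share of all genes called by DESeq2 is not given here, so its counts stand without a background. With the replicate block, 5 were called in IFNg_EZH2i against IFNg, against 3.94% of all genes: Col4a1, Col4a5, Col4a6 and Col12a1 higher and Col20a1 lower. Averaged over both IFN-γ states, 4 members were called, against 2.22% of all genes: Col4a1, Col9a3, Col12a1 and Col26a1, all higher. The log2 fold change was above 0 for 27 of 35 members in this average, with a median of 0.37 beside −0.0007 over all genes, of which 49.9% were above 0. The tally and median, and the IFN-γ medians above, include 5 members under 1 CPM in every library, such as Col1a1 at 1 to 17 counts. A member can pass the filter on low counts through the libraries where it is high. These values are therefore a description, and no test was made of them. The 4 calls dropped to 1 without Ctr replicate 2, and to 2 without Ctr replicate 1, EZH2i replicate 1, EZH2i replicate 2 or IFNg_EZH2i replicate 2. All-gene calls in the average ran from 245 to 415 with 1 library left out, beside 422 with all 12.

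The interaction asks whether EZH2i acted differently with IFN-γ than without it. It was called for 0 members and 0% of all genes by edgeR, and DESeq2 called 0 members. At an unadjusted p under 0.05 there were 0 members, beside 127 of all 18995 genes. The comparisons share libraries: the averaged EZH2i effect uses all 12, and Ctr enters both the EZH2i and the IFN-γ comparison.

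**Figure D2:**
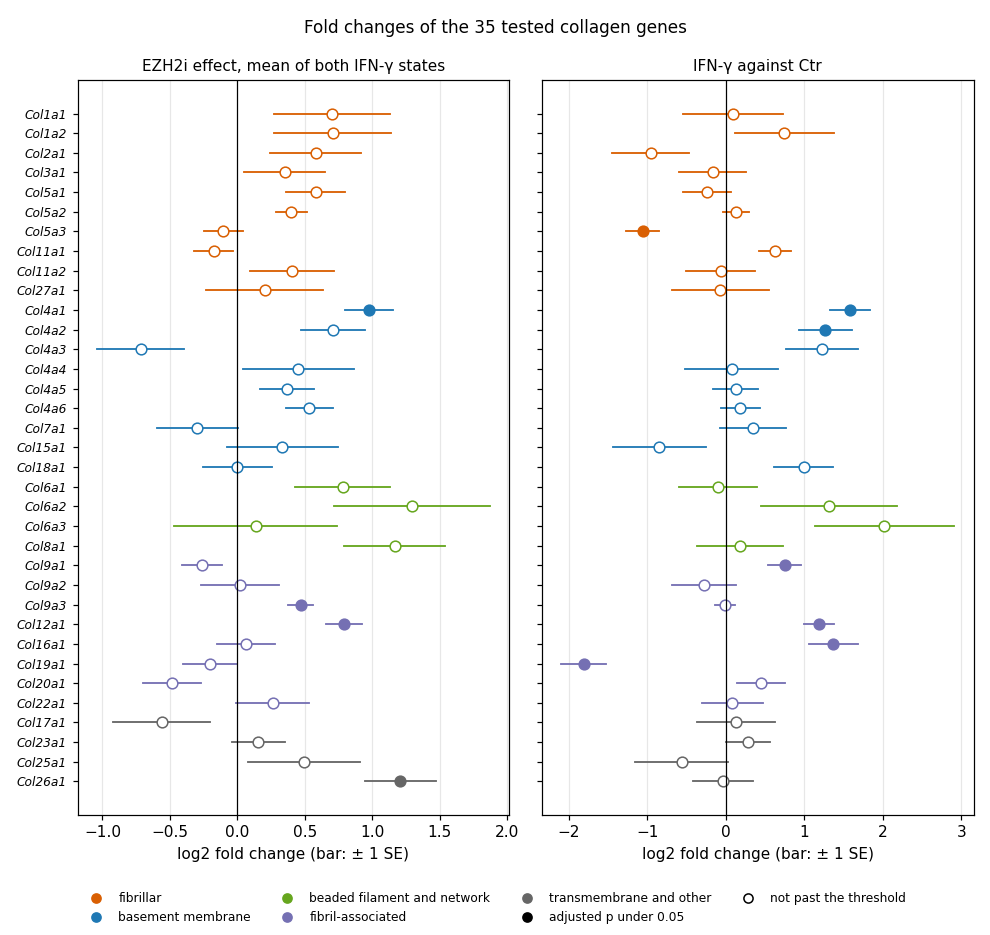
Log2 fold change with ± 1 SE of the 35 tested collagen genes, by class, for EZH2i averaged over both IFN-γ states (left) and IFN-γ against Ctr (right). Filled dots passed an adjusted p of 0.05 and number 4 on the left and 7 on the right, where Col5a3 and Col19a1 are the filled dots below 0.

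Among the type IV genes, Col4a1 was called higher with IFN-γ and in the EZH2i average, Col4a2 in IFNg against Ctr, and Col4a3 to Col4a6 in no comparison of the group-only fit. Col4a1 and Col4a2 encode the chains of the ubiquitous basement membrane network and lie head to head on chromosome 8 (GRCm38), Col4a1 at chr8:11198423-11312826 on the minus strand and Col4a2 at chr8:11312805-11449287 on the plus strand. Their annotated first exons share 22 bases, shown here on the plus strand with a GC box (GGGCGG, or its complement) in capitals, because the pair is read outward from this short piece.

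Col4a1 and Col4a2 shared start, chr8:11312805-11312826 (+): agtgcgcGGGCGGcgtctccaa

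Col4a1 was at 19.0, 13.3 and 15.5 CPM in Ctr replicates 1 to 3, at 49.6, 36.6 and 32.9 in EZH2i, at 63.2, 41.1 and 39.1 in IFNg, and at 94.9, 74.3 and 54.1 in IFNg_EZH2i. All 9 treated libraries lay above the 3 Ctr libraries, and the mean of IFNg_EZH2i was 4.67 times that of Ctr. The log2 fold change was 1.58 ± 0.26 (SE) for IFNg against Ctr (edgeR adjusted p = 0.00156) and 0.91 ± 0.25 for IFNg_EZH2i against EZH2i (edgeR adjusted p = 0.0442). For EZH2i it was 1.31 ± 0.25 without IFN-γ (edgeR adjusted p = 0.0562) and 0.64 ± 0.25 with it (edgeR adjusted p = 0.624; 0.00673 with the replicate block), and 0.98 ± 0.18 on average (edgeR adjusted p = 0.0140). With the replicate block it was 1.29 ± 0.11 in EZH2i against Ctr (edgeR adjusted p = 0.000109), where pairing by replicate number is less certain. The averaged call was lost without Ctr replicate 2 (adjusted p = 0.0505), and with length-scaled TPM (0.266).

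The rise of Col4a1 in IFNg_EZH2i over EZH2i was the less stable one. It lost its call when any one of the Ctr libraries, EZH2i replicate 2 or 3, IFNg replicate 2, or IFNg_EZH2i replicate 1 or 2 was left out, with edgeR adjusted p up to 0.166, and with RLE factors, length-scaled TPM, or a fit of only these 6 libraries (up to 0.293). With length-scaled TPM the call in IFNg against Ctr was lost as well (adjusted p = 0.176).

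Col4a2 followed at a lower level. It was at 10.7, 5.82 and 6.14 CPM in Ctr, at 20.2, 14.1 and 12.6 in EZH2i, at 26.4, 14.2 and 14.1 in IFNg, and at 32.9, 20.5 and 17.4 in IFNg_EZH2i, with every treated library above every Ctr library. Its log2 fold change was 1.27 ± 0.34 for IFNg against Ctr (edgeR adjusted p = 0.0388) and 0.60 ± 0.33 for IFNg_EZH2i against EZH2i (edgeR adjusted p = 0.427; 0.00143 with the replicate block). For EZH2i it was 1.04 ± 0.34 without IFN-γ, 0.37 ± 0.33 with it, where the groups overlapped, and 0.71 ± 0.24 on average, none of which passed (edgeR adjusted p = 0.370, 0.999 and 0.201). The IFN-γ call was lost without Ctr replicate 2 or 3, EZH2i replicate 2, IFNg replicate 1 or IFNg_EZH2i replicate 2 (adjusted p up to 0.178), and with only the 6 libraries compared.

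**Figure D3:**
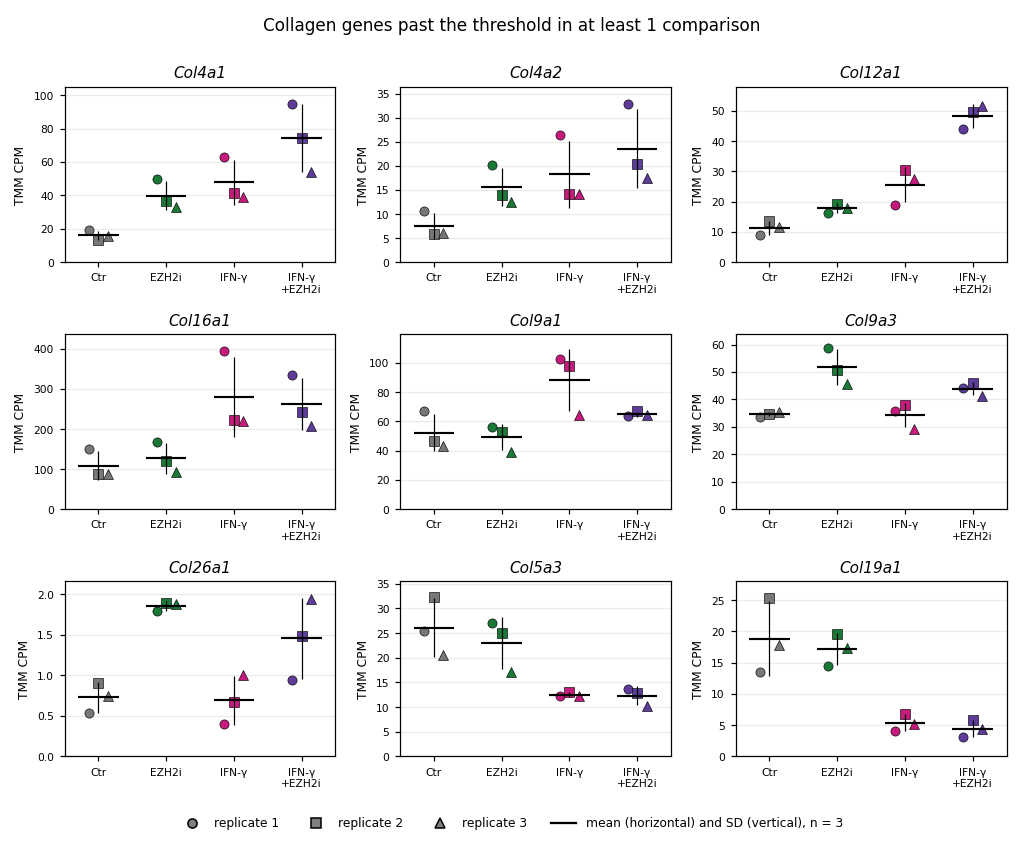
TMM-scaled CPM of the 9 collagen genes called in at least 1 comparison, by group, with a symbol for each replicate, the mean as a horizontal line and the SD as a vertical line (n = 3). Col4a1, Col4a2 and Col12a1 are above Ctr in all 9 treated libraries, while Col5a3 and Col19a1 are lower in all 6 libraries with IFN-γ than in the 6 without it.

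The X-linked pair Col4a5 and Col4a6 forms a separate type IV network. Col4a5 was at 23.9, 28.3 and 37.6 CPM in Ctr, at 29.0, 37.0 and 45.5 in EZH2i, at 21.0, 35.3 and 41.7 in IFNg, and at 32.2, 42.9 and 56.6 in IFNg_EZH2i, and the groups overlapped. Col4a6 was at 6.15 to 10.5, 10.1 to 12.3, 7.20 to 11.5 and 10.6 to 16.0 CPM in the same order. Neither was called in the group-only fit, with log2 fold changes of 0.13 ± 0.28 and 0.18 ± 0.24 for IFNg against Ctr. With the replicate block both rose in IFNg_EZH2i against IFNg, by 0.44 ± 0.10 and 0.55 ± 0.14 (edgeR adjusted p = 0.0258 and 0.0495).

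Col4a3 and Col4a4, the chains of the kidney and lung network, were low, at 0.441 to 3.52 and 0.137 to 0.683 CPM. Col18a1, whose C-terminal fragment is endostatin, was at 14.2, 10.1 and 6.73 CPM in Ctr and at 25.3, 22.8 and 13.5 in IFNg. In the group-only fit its log2 fold change of 0.99 ± 0.37 did not pass (edgeR adjusted p = 0.155), and with the replicate block it did (9.32e-05). Col7a1, the chain of anchoring fibrils, and Col15a1 were not called. As a class, basement membrane collagens summed to 73.3 to 88.6 CPM in Ctr, 118 to 134 in EZH2i, 127 to 163 in IFNg and 161 to 203 in IFNg_EZH2i. The Ctr sums lay below all others. From Ctr to IFNg_EZH2i the mean sum went from 81.7 to 183 CPM, with Col4a1 from 15.9 to 74.4 and Col4a2 from 7.55 to 23.6. Only Col4a1 and Col4a2 of this class were called in the group-only fit, so the sum largely restates them.

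Among fibrillar collagens the abundant chains did not pass the group-only test and a minor one fell. Col11a1 (chr3:114030540-114220718, plus strand) was at 1390.0, 900.2 and 1069 CPM in Ctr, at 1293, 956 and 1066 in EZH2i, at 2171, 1479.7 and 1521 in IFNg, and at 1561, 1286 and 1269 in IFNg_EZH2i. The 3 IFNg libraries were above the 3 Ctr libraries, while EZH2i overlapped Ctr. The log2 fold change for IFNg against Ctr was 0.62 ± 0.20 (edgeR adjusted p = 0.0925; 0.00036 with the replicate block), and for IFNg_EZH2i against EZH2i 0.31 ± 0.20 (0.530; 0.0278 with the block).

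Col11a2 was at 268, 149 and 151 CPM in Ctr, at 448, 236 and 177 in EZH2i, at 266, 169.7 and 106 in IFNg, and at 325, 169.6 and 129 in IFNg_EZH2i. Replicate 1 was the highest library in each of the 4 groups, and the groups overlapped. Its log2 fold change for IFNg_EZH2i against EZH2i was −0.46 ± 0.44 (edgeR adjusted p = 0.733; 0.0136 with the replicate block). Only 41.6% of its reads fell to the most-read transcript, so its level per kilobase depends on the transcript chosen.

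Col5a3, a chain of type V collagen that is found in few tissues, fell with IFN-γ. The 250 bases before its start (GRCm38.p6, RefSeq promoter table) are printed because it is the fibrillar gene that was called, with the CCAAT box and the GC boxes (GGGCGG) on either strand in capitals.

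Col5a3, chr9:20815068-20815317 (−): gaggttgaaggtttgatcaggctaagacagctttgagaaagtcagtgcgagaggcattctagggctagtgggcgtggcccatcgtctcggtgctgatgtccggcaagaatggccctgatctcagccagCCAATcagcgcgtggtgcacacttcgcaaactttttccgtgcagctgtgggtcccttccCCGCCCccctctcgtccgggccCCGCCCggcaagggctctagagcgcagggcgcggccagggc

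Col5a3 was at 25.5, 32.4 and 20.5 CPM in Ctr and 27.0, 25.04 and 17.1 in EZH2i, against 12.2, 13.1 and 12.3 in IFNg and 13.8, 12.9 and 10.2 in IFNg_EZH2i. The libraries with IFN-γ all lay below those without it. The log2 fold change was −1.06 ± 0.21 without EZH2i (edgeR adjusted p = 0.00672, and at most 0.0310 under every alternative) and −0.90 ± 0.21 with it (edgeR adjusted p = 0.0174). The latter call was lost without EZH2i replicate 1 or 2, or IFNg_EZH2i replicate 2 or 3 (adjusted p up to 0.0748). Col5a1, the main chain of type V, was at 31.8 to 56.6 CPM in Ctr, 45.2 to 82.6 in EZH2i, 29.0 to 48.6 in IFNg and 34.7 to 64.1 in IFNg_EZH2i and was not called in the group-only fit. Its partner Col5a2 lay between 6.43 and 11.01 CPM. Col27a1, at 7.59 to 54.1 CPM, overlapped in all groups, and Col24a1, with at most 11 counts in a library, was not tested.

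Fibril-associated collagens held a rise (Col12a1) and a fall (Col19a1) whose IFN-γ calls held without any one library. Col12a1 (chr9:79598991-79718831, minus strand), a chain that bridges fibrils and other matrix, was at 8.83, 13.5 and 11.5 CPM in Ctr, at 16.2, 19.3 and 18.0 in EZH2i, at 19.0, 30.4 and 27.3 in IFNg, and at 43.9, 49.7 and 51.6 in IFNg_EZH2i. Each agent alone put its 3 libraries above Ctr, and the combination stood above all other libraries at 4.29 times the Ctr mean. For IFN-γ the log2 fold change was 1.19 ± 0.20 without EZH2i (edgeR adjusted p = 0.00181) and 1.44 ± 0.19 with it (edgeR adjusted p = 0.00039).

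For EZH2i, the log2 fold change of Col12a1 was 0.66 ± 0.19 without IFN-γ (edgeR adjusted p = 0.257), 0.92 ± 0.19 with it (edgeR adjusted p = 0.0872; 0.000511 with the replicate block), and 0.79 ± 0.14 on average (edgeR adjusted p = 0.0106). With the replicate block it was 0.68 ± 0.11 in EZH2i against Ctr (edgeR adjusted p = 0.00553), where pairing by replicate number is less certain. No library left out ended the calls of Col12a1. With length-scaled TPM, the averaged EZH2i call (adjusted p = 0.126) and the call in IFNg against Ctr (0.0646) were lost. The difference between its effects with and without the other agent was 0.25 ± 0.27 on the log2 scale (edgeR interaction, unadjusted p = 0.367).

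Col19a1 (chr1:24261890-24587472, minus strand) and Col9a1 (chr1:24177610-24252684, plus strand) are neighbors on chromosome 1 with their ends facing each other. They moved in opposite directions under IFN-γ, and the bases before their starts are given for comparison. These stretches hold no GC box and no CCAAT box, so neither has capitals, and the CCAAT of the Col9a1 window lies at or past its start. That of Col19a1 is shorter, since its annotated and RefSeq starts differ.

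Col9a1, chr1:24177360-24177609 (+): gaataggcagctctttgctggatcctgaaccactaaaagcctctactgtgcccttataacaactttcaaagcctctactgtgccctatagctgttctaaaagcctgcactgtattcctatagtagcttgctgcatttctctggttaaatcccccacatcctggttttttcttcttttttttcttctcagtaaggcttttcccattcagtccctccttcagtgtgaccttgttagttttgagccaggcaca
Col19a1, chr1:24587473-24587687 (−): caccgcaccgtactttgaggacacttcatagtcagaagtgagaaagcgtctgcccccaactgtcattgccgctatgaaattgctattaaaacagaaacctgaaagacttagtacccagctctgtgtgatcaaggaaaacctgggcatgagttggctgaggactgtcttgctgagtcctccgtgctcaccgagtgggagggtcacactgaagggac

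Col19a1, a collagen that neurons make and that takes part in synapse formation, was at 13.5, 25.3 and 17.8 CPM in Ctr and 14.5, 19.5 and 17.4 in EZH2i, against 4.12, 6.79 and 5.20 in IFNg and 3.12, 5.83 and 4.35 in IFNg_EZH2i. The ranges with and without IFN-γ did not meet. The log2 fold change was −1.81 ± 0.29 (edgeR adjusted p = 0.00139) and −1.95 ± 0.29 (edgeR adjusted p = 0.000828) without and with EZH2i, and no alternative raised these p-values above 0.00815 and 0.00485.

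Col9a1 was at 67.0, 46.9 and 43.2 CPM in Ctr, at 56.1, 53.0 and 39.4 in EZH2i, at 103, 98.02 and 64.1 in IFNg, and at 63.8, 67.0 and 64.1 in IFNg_EZH2i. IFNg replicate 3 lay within the Ctr range. Its rise in IFNg against Ctr was 0.75 ± 0.21 on the log2 scale (edgeR adjusted p = 0.0457; 0.00145 with the replicate block). That call was lost in 9 of 12 fits with a library left out, namely without Ctr replicate 2 or 3, EZH2i replicate 1 or 2, IFNg replicate 1 or 2, or any IFNg_EZH2i library, with adjusted p up to 0.194, and with RLE factors or only the 6 libraries compared.

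Col9a3, whose chain joins those of Col9a1 and Col9a2 in type IX collagen, rose in the EZH2i average and was not called with IFN-γ. It was at 33.7, 34.8 and 35.2 CPM in Ctr, at 58.7, 50.8 and 45.8 in EZH2i, at 35.8, 37.8 and 29.3 in IFNg, and at 44.2, 46.0 and 41.4 in IFNg_EZH2i. All 6 libraries with EZH2i lay above the 6 without it. In EZH2i against Ctr the log2 fold change was 0.58 in the group-only fit (edgeR adjusted p = 0.0985). With the replicate block it was 0.57 ± 0.10 (edgeR adjusted p = 0.00666), where pairing by replicate number is less certain. The averaged log2 fold change was 0.47 ± 0.09 (edgeR adjusted p = 0.0212). It did not pass without Ctr replicate 1 or 2, EZH2i replicate 1 or 2, or IFNg_EZH2i replicate 2 (adjusted p up to 0.0658), or with length-scaled TPM (0.123). The last exons of Col9a3 share 234 bases, or 6.07% of its exon bases, with the opposite-strand gene Tcfl5.

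Col16a1 (chr4:130047840-130099283, plus strand) was at 149.8, 87.8 and 87.2 CPM in Ctr, at 168, 119 and 92.4 in EZH2i, at 396, 223 and 219.8 in IFNg, and at 334, 243 and 208 in IFNg_EZH2i. The libraries with IFN-γ were all above those without it. The log2 fold change was 1.37 ± 0.31 without EZH2i (edgeR adjusted p = 0.0156) and 1.05 ± 0.31 with it (edgeR adjusted p = 0.0622; 3.42e-06 with the replicate block). The first call was lost without Ctr replicate 2 or 3 or IFNg replicate 1 (adjusted p up to 0.0928). Col20a1, at 33.2 to 105 CPM, overlapped between all groups, and Col22a1, at 0.944 to 2.65 CPM, was not called. Col14a1, with at most 24 counts in a library, was not tested.

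Beaded filament and network collagens differed much between replicates. Col6a3, the long chain of type VI collagen, was at 13.97, 3.90 and 2.26 CPM in Ctr, at 16.8, 6.36 and 3.55 in EZH2i, at 40.6, 36.2 and 4.75 in IFNg, and at 40.2, 24.8 and 9.79 in IFNg_EZH2i. Replicate 1 was highest and replicate 3 lowest in all 4 groups, so the group ranges overlapped. Its log2 fold change of 2.02 ± 0.88 for IFNg against Ctr did not pass in the group-only fit (edgeR adjusted p = 0.237) and passed with the replicate block (0.00115).

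Col6a1, the partner of Col6a3, was at 4.96, 2.65 and 2.04 CPM in Ctr, at 8.22, 6.27 and 3.08 in EZH2i, at 3.25, 4.00 and 1.76 in IFNg, and at 7.26, 5.01 and 2.36 in IFNg_EZH2i, and the groups overlapped. Col6a2 stayed between 0.113 and 2.01 CPM and Col8a1, a chain of vascular and corneal networks, between 0.339 and 2.91 CPM. None of these was called in the group-only fit, and Col8a2 was not tested.

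Transmembrane and other collagens were scarce. Col26a1 was at 0.532, 0.903 and 0.746 CPM in Ctr, at 1.79, 1.89 and 1.88 in EZH2i, at 0.402, 0.666 and 1.00 in IFNg, and at 0.940, 1.49 and 1.94 in IFNg_EZH2i. Only IFNg_EZH2i replicate 1 fell among the libraries without EZH2i. The averaged EZH2i effect was 1.21 ± 0.26 on the log2 scale (edgeR adjusted p = 0.0353). It held in the fits without IFNg replicate 3 and without IFNg_EZH2i replicate 1, was lost without any one of the other 10 libraries (adjusted p up to 0.0914), and was lost with length-scaled TPM (0.350).

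Col23a1, a transmembrane collagen, was at 3.30, 2.37 and 2.68 CPM in Ctr, at 2.14, 3.096 and 3.67 in EZH2i, at 2.75, 3.65 and 3.76 in IFNg, and at 2.82, 5.11 and 3.83 in IFNg_EZH2i. Its groups overlapped and it was not called. Col25a1, the precursor of a peptide found in amyloid plaques, was at 0.309 to 2.33 CPM and Col17a1, of the hemidesmosome, at 0.201 to 0.771 CPM, and neither was called in the group-only fit. Col13a1 and Col28a1 had at most 8 counts in any library and were not tested.

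The balance of some partner chains differed between groups. Within a library, the ratio of Col9a1 to Col9a3 in CPM per kilobase was 0.909 to 1.48 in Ctr, 0.640 to 0.774 in EZH2i, 1.63 to 2.13 in IFNg and 1.07 to 1.15 in IFNg_EZH2i. The ratio was lower with EZH2i than without it and higher with IFN-γ than without it, with no overlap between groups that differ in 1 agent, and IFNg_EZH2i fell inside the Ctr range. Col9a1 was called in IFNg against Ctr and Col9a3 in the EZH2i average, so this ratio partly restates those calls. The ratio of Col9a3 to Col9a2 overlapped between all groups. It was 2.499 to 4.87, 3.59 to 5.88, 2.72 to 5.75 and 4.17 to 8.16 in the same order. The ratio of Col9a1 to Col9a2 was higher with IFN-γ, without overlap. It overlapped between Ctr and EZH2i, and between IFNg and IFNg_EZH2i. Further ratios of type V, VI and XI chains were computed and are not listed here. The ratios are given as a description, with no test.

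The ratio of Col4a5 to Col4a6 overlapped between all groups, at 3.52 to 4.68 in Ctr, 2.51 to 3.76 in EZH2i, 2.97 to 4.36 in IFNg and 3.101 to 3.60 in IFNg_EZH2i. The ratio of Col4a1 to Col4a2 was 1.73 to 2.45 in Ctr, 2.39 to 2.56 in EZH2i, 2.34 to 2.814 in IFNg and 2.808 to 3.54 in IFNg_EZH2i. The first 3 groups overlapped, and IFNg and IFNg_EZH2i overlapped slightly. That of Col11a1 to Col11a2 was 4.09 to 5.60, 2.28 to 4.76, 6.44 to 11.3 and 3.79 to 7.78 in the same order, and the IFNg libraries lay above the Ctr libraries. Such ratios cancel any scaling shared by the library but still depend on the transcript lengths used.

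**Figure D4:**
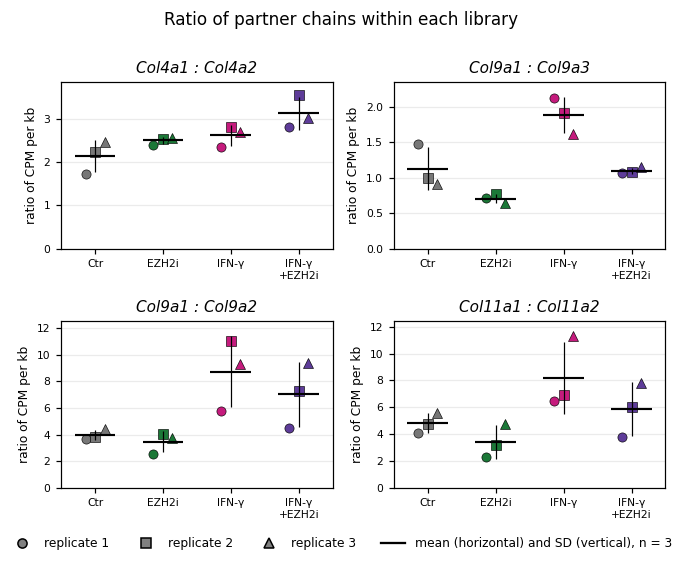
Ratio of partner chains, in CPM per kilobase, within each of the 12 libraries by group, with the mean as a horizontal line and the SD as a vertical line (n = 3). The ratio of Col9a1 to Col9a3 is 0.640 to 0.774 in EZH2i and 1.63 to 2.13 in IFNg. That of Col4a1 to Col4a2 has its highest mean in IFNg_EZH2i, at 2.808 to 3.54, and overlaps slightly with IFNg there.

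The level of many collagen genes went with the replicate number. Among the 35 tested members, 11 were highest in replicate 1 in all 4 groups, including Col11a1, Col11a2, Col4a1, Col4a2, Col16a1 and Col6a3, and 8 were lowest in replicate 3 in all 4 groups. Col4a5 went the other way, lowest in replicate 1 and highest in replicate 3 in each group. These counts were not made over all genes, so they do not set the collagen genes apart. Over all tested genes, the deviations of same-numbered libraries from their group means correlated at 0.0315 to 0.748. Replicates came from different litters, so p-values here measure the spread between litters together with that of the cultures.

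The promoter windows of the collagen genes, 250 bases before to 50 after each RefSeq start, were searched on both strands. Of the 31 members with an entry, 19 held the GC box GGGCGG and 12 the CCAAT box, against 35.7% and 37.4% of all 32851 windows. TATAAA was present for 4 members (13.6% of all windows). No match says only that these letters are not in this window.

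Genes that modify, process, degrade or bind collagen were read from 5 lists, chosen with earlier results of these data known. In IFNg against Ctr, edgeR called 10.0% of the tested chaperones and modifying enzymes, 15.4% of the propeptide proteinases and cross-linking enzymes, 11.1% of the receptors, 30.0% of the degrading proteinases and inhibitors and 30.8% of the collagen-binding matrix proteins, beside 8.75% of all genes. In IFNg_EZH2i against EZH2i the shares were 15.0%, 7.69%, 0%, 30.0% and 30.8%, beside 8.07% of all genes. The lists are small, and no test was made of these shares. Among 20 chaperones and modifying enzymes, all tested, 1 rose and 1 fell in IFNg against Ctr by edgeR. Plod3, which hydroxylates and glycosylates lysines of procollagen, was at 123, 97.2 and 85.2 CPM in Ctr and at 330.1, 256 and 191 in IFNg, a log2 fold change of 1.35 ± 0.26 (edgeR adjusted p = 0.00515). The galactosyltransferase Colgalt2 fell, from 21.0, 22.8 and 16.1 to 10.99, 13.9 and 10.4 CPM. Both kept their direction and call in IFNg_EZH2i against EZH2i, where the prolyl hydroxylase P3h3 also fell. The isomerase Ppib (225 to 252 CPM) and P4hb, a subunit of prolyl hydroxylase (304 to 399 CPM), the highest by TPM, were not called.

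Of 14 proteinases of the propeptides and cross-linking enzymes, 13 were tested and 2 rose in IFNg against Ctr. Adamts3, which removes the N-propeptide of procollagen, was at 12.7, 25.5 and 17.0 CPM in Ctr, at 92.7, 87.1 and 82.3 in IFNg, and at 107, 99.9 and 86.8 in IFNg_EZH2i. Its log2 fold change was 2.26 ± 0.26 without EZH2i and 2.21 ± 0.25 with it, with no overlap. Pxdn, which cross-links type IV collagen, was at 64.5 to 75.6 CPM in Ctr and 97.2 to 133 in IFNg. Averaged over both IFN-γ states, where 2.22% of all genes were called, the lysyl oxidase-like enzymes Loxl2 and Loxl3 rose with EZH2i, by 1.34 ± 0.23 and 0.60 ± 0.13 on the log2 scale (edgeR adjusted p = 0.0106 and 0.0293), and so did the chaperone Fkbp14, by 0.37 ± 0.09 (0.0483).

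Among 14 degrading proteinases and inhibitors, of which 10 were tested, 2 rose and 1 fell in IFNg against Ctr, and 2 rose and 1 fell in IFNg_EZH2i against EZH2i. Timp3, an inhibitor of metalloproteinases bound to the matrix, was at 118, 122 and 121 CPM in Ctr and 494, 347 and 429.8 in IFNg. Timp1 went from 1.45, 1.36 and 1.00 to 7.47, 11.1 and 7.10 CPM and reached 16.3, 18.4 and 7.53 in IFNg_EZH2i. Mmp15, a membrane-bound metalloproteinase, fell from 1075, 1088 and 985 to 480.1, 316 and 471 CPM. Of 10 collagen receptors, 9 were tested, and Adgrg1, a receptor for type III collagen, fell in IFNg against Ctr, while Itgb1 and Ddr1 were not called.

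Of 16 collagen-binding matrix proteins, 13 were tested, and 4 rose in IFNg against Ctr: Lum, Fbn1, Tgfbi and Postn. Lum was at 0.0565 to 0.106 CPM in Ctr and 1.07 to 1.82 in IFNg. At these depths 0.0565 CPM is 1 count in Ctr replicate 2 and 0.106 CPM is 3 counts in Ctr replicate 1. The Ctr side of this rise is thus close to no reads. Postn was at 0.452 to 1.60 CPM in Ctr and 2.50 to 7.34 in IFNg, and Tgfbi at 2.34 to 14.8 and 16.2 to 79.1. Lum is on the fibroblast marker list as well. Fn1 was called higher in IFNg_EZH2i, at 19.6 to 41.4 CPM, than in EZH2i, at 9.34 to 12.9, and was not called in IFNg against Ctr. Its interaction was not called. Sparc, which binds fibrillar and type IV collagen, rose with EZH2i by 0.36 ± 0.08 on average (edgeR adjusted p = 0.0369). With the replicate block, 25 listed genes outside the collagens were called in IFNg against Ctr and 23 in IFNg_EZH2i against EZH2i, where the group-only fit called 12 and 11, and the block also raised the share of all genes called to 21.2% and 19.3%. Without Ctr replicate 2 the count of 12 fell to 6, and without EZH2i replicate 2 or 3 the count of 11 fell to 6. With 1 library left out, all-gene calls ran from 1111 to 1710 in IFNg against Ctr and from 1078 to 1566 in IFNg_EZH2i against EZH2i.

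**Figure D5:**
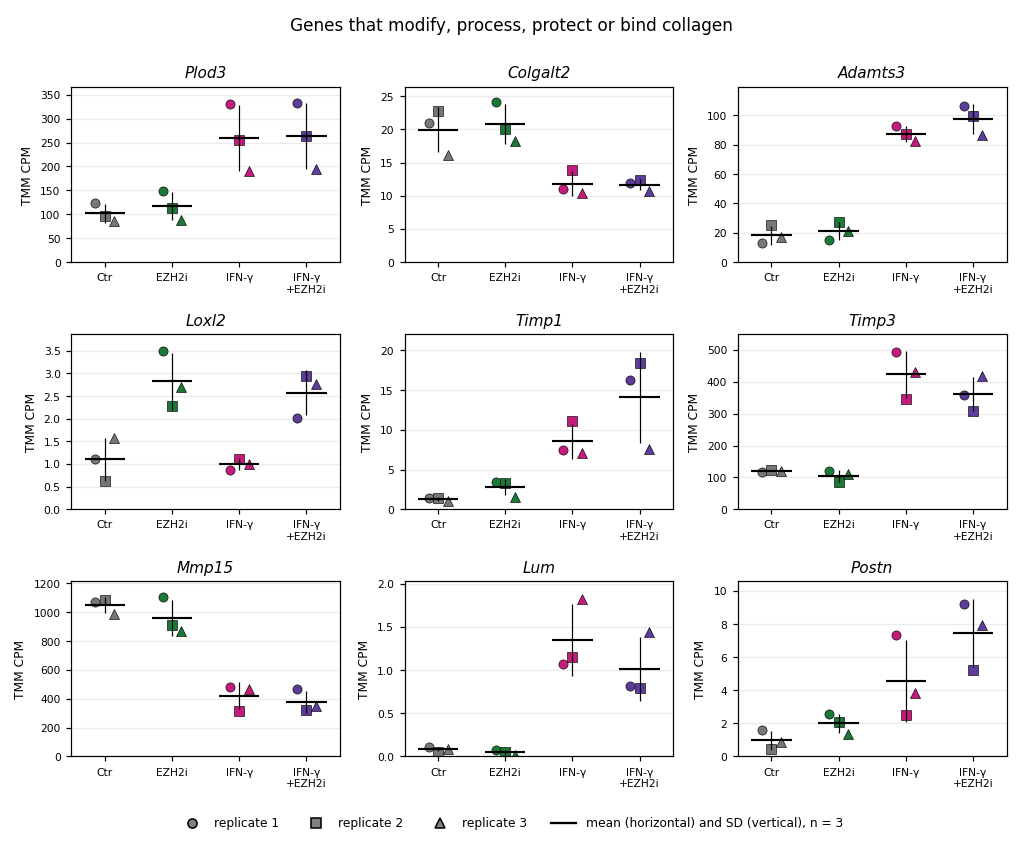
TMM-scaled CPM by group of 9 genes that modify, process, protect or bind collagen, with a symbol for each replicate, the mean as a horizontal line and the SD as a vertical line (n = 3). Adamts3, Timp3 and Plod3 are higher and Mmp15 is lower in all 6 libraries with IFN-γ than in the 6 without it, and Loxl2 is higher with EZH2i.

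Some markers of other cells moved as well. With EZH2i the endothelial list summed to 25.2 to 40.1 CPM, against 14.003 to 21.2 in Ctr, 13.0 to 19.6 in IFNg and 21.1 to 36.4 in IFNg_EZH2i, most of it Flt1, with 4 of 6 markers averaging under 1 CPM. The pericyte list summed to 8.07 to 15.8 CPM in Ctr, 4.85 to 13.3 in EZH2i, 15.7 to 23.6 in IFNg and 15.2 to 20.5 in IFNg_EZH2i, with Kcnj8 called higher under IFN-γ. The neuron list summed to 14.1 to 14.996 CPM in Ctr, 27.1 to 43.3 in EZH2i, 16.4 to 22.8 in IFNg and 32.2 to 58.7 in IFNg_EZH2i, and the list of mature oligodendrocytes to 1470.4 to 1838 CPM in Ctr, 808 to 1287 in EZH2i, 1393 to 1611 in IFNg and 781 to 1272 in IFNg_EZH2i. The Schwann and neural crest list summed to 3.90 to 4.96 CPM in Ctr, 4.30 to 6.90 in EZH2i, 5.57 to 6.002 in IFNg and 5.24 to 13.6 in IFNg_EZH2i, and Tfap2a, 1 of its 4 tested genes, was called higher in the EZH2i average. Astrocyte markers ranged from 405 to 1459 CPM, and all 6 microglial markers averaged under 1 CPM. OPC markers Pdgfra and Cspg4 fell with IFN-γ in both comparisons. The part of these cells in the collagen changes was not tested.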

How the data were processed

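RNA was measured in 12 libraries of mouse OPCs, 3 replicates from different litters in each of 4 groups. The authors trimmed the reads and quantified transcripts with Salmon 0.8.2 on GRCm38 (mm10), and the deposited values are estimated counts and TPM per transcript. STAR and DESeq2 are also named in the submitters' notes. The strand setting and the annotation of the Salmon index are not given in the sources used here. The 2 deposited tables of the authors' own comparisons hold fold changes and p-values and were not used.

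Per gene, the sum of its transcripts' estimated counts was rounded, with totals of 17403896 to 66546017 per library. Genes passing filterByExpr (18995) were fitted with edgeR 4.0.16 (R 4.3.3) by the quasi-likelihood test with TMM factors, all 12 libraries in 1 fit with group as the only term, and Benjamini-Hochberg adjustment over all tested genes in each of 6 contrasts, with a threshold of 0.05. Standard errors are the absolute log2 fold change divided by the square root of F. The code was tested on simulated data. Alternatives were DESeq2 1.42.0, RLE factors, other filters on low counts, length-scaled TPM, protein-coding transcripts only, only the libraries compared, a replicate block and leaving out each library.

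Replicate numbers were taken to pair the groups where each of 3 pairs of same-numbered libraries had deviations from the group means that correlated above 0.1 over genes. This held for Ctr and IFNg (0.627, 0.105 and 0.652), EZH2i and IFNg_EZH2i (0.605, 0.633 and 0.686), and IFNg and IFNg_EZH2i (0.741, 0.638 and 0.748). It did not hold for Ctr and EZH2i (0.583, 0.0929 and 0.608), where the lowest value was just under the limit. Blocked values stand beside the first 3. The few given for EZH2i against Ctr carry this limit. Those for IFNg against Ctr carry a similar one, since the 0.105 of replicate 2 was just over 0.1.

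The members, classes and gene lists were chosen with earlier results of these data known. Genes given in every library are those called in at least 1 contrast and the 2 members of highest mean TPM in each class. Listed pathway genes are named where called or among the 2 highest by TPM. Promoter sequences are from RefSeq (GRCm38.p6).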

Additional observations from a re-analysis of the deposited data

How the results depend on the processing

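The interaction was called for 0 members under each alternative that was run. With DESeq2, 3 members were called in EZH2i against Ctr and 1 in IFNg_EZH2i against IFNg, where edgeR called 0, and the filterless fit and the fit on protein-coding transcripts each called 1 in the former. With the replicate block the counts were 10 in EZH2i against Ctr, 5 in IFNg_EZH2i against IFNg, 14 for EZH2i averaged over both IFN-γ states, 12 in IFNg against Ctr and 14 in IFNg_EZH2i against EZH2i. The block also raised the calls over all 18995 genes, to 771 in EZH2i against Ctr (from 77) and to 2317 in the average (from 422). Length-scaled TPM left 1 call in the EZH2i average, a lower one, against 4. When 1 library was left out, the counts ran from 0 to 1, 0 to 0, 1 to 4, 4 to 7 and 2 to 5 in the same order. All-gene calls then ran from 11 to 83, 10 to 65, 245 to 415, 1111 to 1710 and 1078 to 1566.

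For the listed genes of collagen biosynthesis and matrix, DESeq2 called 2, 1 and 8 in EZH2i against Ctr, IFNg_EZH2i against IFNg and the average, against 0, 0 and 4. The replicate block called 7, 7, 18, 25 and 23 in the 5 comparisons, against 0, 0, 4, 12 and 11. In the average, no filter gave 2 and length-scaled TPM 1. Leaving out a library gave 1 to 4 in the average, 6 to 13 in IFNg against Ctr and 6 to 11 in IFNg_EZH2i against EZH2i. These fits are those of the paragraph above. Outside the fits with 1 library left out, all-gene calls ran from 29 to 771 in EZH2i against Ctr. They ran from 7 to 748 in IFNg_EZH2i against IFNg and from 238 to 2317 in the average. Whether the listed genes moved apart from this general change in calls was not tested. These pathway counts, and the class shares per kilobase, were added after seeing the data.

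The fibrillar share of collagen TPM, 60.8%, was 74.6% in CPM and 64.0% per kilobase, and the fibril-associated share, 31.5%, was 18.1% and 28.8%. Of 816 recomputed values of 41 gene fold changes, 716 kept direction and side of the threshold, 57 lost the call, 42 gained it and 1 turned: Col11a2 in IFNg_EZH2i against EZH2i, at 0.011 without EZH2i replicate 1, where leaving out a library gave −0.96 to 0.011. The cause was not tested. The shallowest library holds 17403896 counts, and 5 members had too few counts to test.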
